A study of Mus musculus with 24 samples.

Results

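The tissue inhibitors of metalloproteinases (TIMPs) of the mouse are encoded by 4 genes, Timp1, Timp2, Timp3 and Timp4. They were taken from the table of RNA levels by gene name, and all 4 were found among its 32561 genes. RNA was sequenced from the aortas of mice of the 129S1/SvlmJ strain aged 44 to 53 days, with 4 animals in each of 6 groups. The affected mice carried 2 copies of a recessive Klotho mutation (Kl/Kl), which the labels tie to renal failure. They were Bmp2+/+ males, Bmp2+/+ females, or ∆UCS males, in which both copies of Bmp2 carry a mutation of that name. Their controls had healthy kidneys and the same Bmp2 genotype and sex. Of the 12 controls, 11 were heterozygous for the Klotho mutation, and replicate 1 of the control Bmp2+/+ males was wild type for Klotho. Both mutations were germline alleles carried by every cell, so the aorta was studied inside a mouse with systemic disease. Kl/Kl mice were small and weak, per the labels, and were given moistened food.

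TIMPs are small secreted proteins that bind the active site of matrix metalloproteinases (MMPs), the enzymes that cut collagens, elastin and other proteins of the extracellular matrix. Each inhibitor blocks a broad set of MMPs, and Timp3, which stays bound to the matrix, also blocks several ADAM and ADAMTS proteinases. In arteries they are made by smooth muscle cells, fibroblasts, endothelial cells and macrophages. Timp1 is known as the member that cytokines and growth factors induce, whereas Timp2 is known for steady expression.

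Each gene lies within or around another. In the mm39 coordinates of the deposited table, Timp1 (ENSMUSG00000001131) is on the plus strand at chrX:20736405-20740975, inside the synapsin gene Syn1 on the opposite strand. Timp2 (ENSMUSG00000017466) is on the minus strand at chr11:118191895-118246567 and contains Cep295nl on the same strand. Timp3 (ENSMUSG00000020044) is on the plus strand at chr10:86136236-86185371, inside Syn3 on the opposite strand. Timp4 (ENSMUSG00000030317) is on the minus strand at chr6:115218853-115229167, inside Syn2 on the opposite strand. These are whole gene spans, exons and introns together. Whether strand was used in counting is not given in the sources used here, so reads shared with these partners cannot be told apart.

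The promoters are shown because Timp1, and none of the other members, was called between Kl/Kl and control mice. The sequences are from RefSeq on GRCm38.p6, an older build than that of the table, and all 4 genes had an entry. Each line gives the 250 bases before the annotated start, 5′ to 3′ on the strand of the gene. Capitals mark matches to AGGAAG, the core letters of an Ets site, and to GGGCGG, a GC box, on either strand.

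Timp1, chrX:20869916-20870165, plus strand: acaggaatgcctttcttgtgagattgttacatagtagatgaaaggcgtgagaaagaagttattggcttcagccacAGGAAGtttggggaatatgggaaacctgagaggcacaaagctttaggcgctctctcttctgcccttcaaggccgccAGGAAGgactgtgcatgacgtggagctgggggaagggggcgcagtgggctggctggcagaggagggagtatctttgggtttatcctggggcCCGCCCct

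Timp2, chr11:118355412-118355661, minus strand: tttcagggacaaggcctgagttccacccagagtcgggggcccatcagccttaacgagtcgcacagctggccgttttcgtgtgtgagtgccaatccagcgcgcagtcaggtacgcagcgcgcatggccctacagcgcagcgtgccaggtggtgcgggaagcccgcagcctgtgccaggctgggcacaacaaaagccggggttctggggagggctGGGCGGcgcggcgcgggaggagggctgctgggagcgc

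Timp3, chr10:86300162-86300411, plus strand: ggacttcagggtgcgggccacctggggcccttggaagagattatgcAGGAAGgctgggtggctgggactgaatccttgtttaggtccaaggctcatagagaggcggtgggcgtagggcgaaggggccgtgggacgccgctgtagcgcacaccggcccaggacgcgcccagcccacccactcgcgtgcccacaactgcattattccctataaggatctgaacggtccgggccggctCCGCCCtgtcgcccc

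Timp4, chr6:115252206-115252455, minus strand: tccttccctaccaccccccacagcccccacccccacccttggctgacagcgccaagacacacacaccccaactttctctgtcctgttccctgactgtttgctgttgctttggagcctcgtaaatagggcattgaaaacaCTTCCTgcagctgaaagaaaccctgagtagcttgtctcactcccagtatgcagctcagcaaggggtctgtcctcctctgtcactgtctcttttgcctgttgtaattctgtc

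A further stretch of 30 bases lies just past the Timp1 start and holds TGAGTAA, a variant of the AP-1 site, next to another AGGAAG, both in capitals.

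Timp1, chrX:20870186-20870215, plus strand: ggtggaTGAGTAAtgcgtccAGGAAGcctg

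The motifs were searched on both strands in windows running from 250 bases before to 50 after each start, so that 300 bases were read per gene. TGAGTAA was found only in the Timp1 window among the 4 genes, at position 27 after the start, and 2.68% of all 32851 windows held it. AGGAAG was found at -175, -99 and 41 in Timp1, at -204 in Timp3 and at -111 in Timp4, and 35.4% of all windows held it. GGGCGG was found at -8 in Timp1, at -37 in Timp2 and at -15 and 14 in Timp3, and 35.7% of all windows held it. The full AP-1 site TGANTCA and the TATA box TATAAA, held by 7.81% and 13.6% of all windows, were in none of the 4. No motif overlapped another. The guanine and cytosine share of the 250 bases was 54.4% in Timp1, 68% in Timp2, 65.6% in Timp3 and 53.6% in Timp4, against a median of 52.4% over all windows. These are matches of letters and not measured binding sites.

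Values are TPM, a measure of transcripts relative to gene length and library total, as deposited. The deposited TPM were scaled by the whole genomic span of a gene, so they compare a gene between libraries and not genes with each other. Estimated depth was 20594000 to 61110000 reads per library, and transcripts of the mitochondrial genome took 40.2% to 57.8% of the TPM in Kl/Kl libraries and 47.3% to 61.2% in control libraries. Xist, expressed in females, and Ddx3y, on the Y chromosome, went against the labelled sex in 2 Kl/Kl libraries. In the library labelled Kl/Kl Bmp2+/+ male replicate 1, Xist was at 11.4 TPM while Ddx3y was at 0.0138 TPM. In the library labelled Kl/Kl Bmp2+/+ female replicate 2, Xist was at 0.0281 TPM while Ddx3y was at 4.81 TPM. Results are therefore given for the other 22 libraries and, beside them, for all 24 as labelled. With all 24, limma called 0 of 9933 genes in any comparison, with 603, 1498 and 1628 genes at an unadjusted p below 0.05 in the Klotho comparisons in Bmp2+/+ males, Bmp2+/+ females and ∆UCS males. Limma voom with all 24 called 0 in these as well. The smooth muscle markers of the aortic wall summed to 103 to 645 TPM in the 22 libraries, and those of adipocytes to 972 to 2172 TPM. These sums cannot be set against each other, and Fabp4 alone ran from 841 to 1951 TPM over all 24 libraries.

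**Figure D1:**
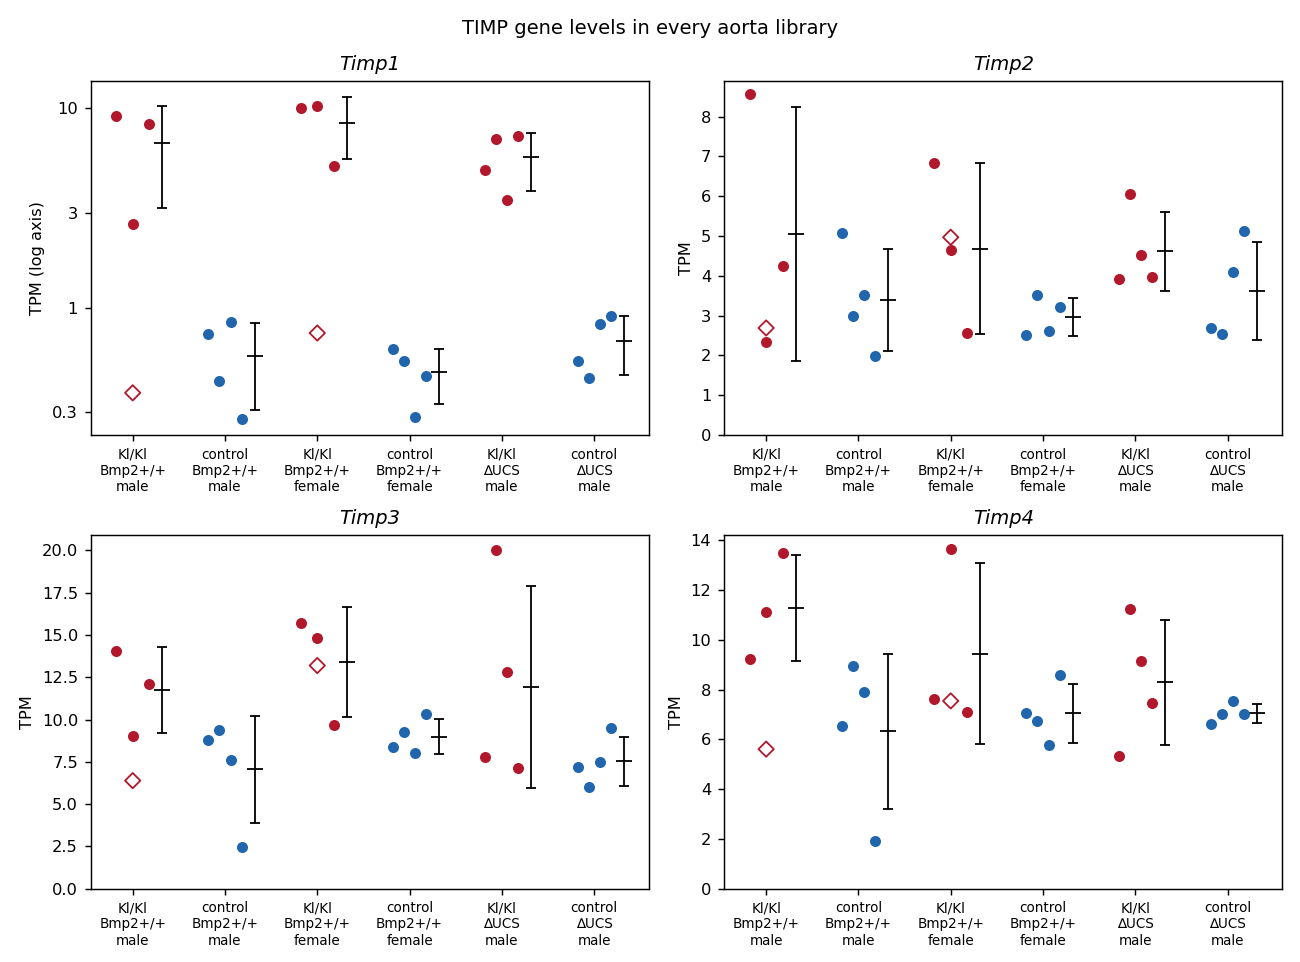
TPM of the 4 TIMP genes in each library, by group (log axis for Timp1, linear for the others). Filled points are the 22 libraries whose sex genes match their labels, open diamonds the 2 that do not, and the bar beside each group is the mean ± SD of the filled points. All Kl/Kl points of Timp1 that are filled lie at 2.63 TPM or above and all control points at 0.911 TPM or below, whereas the groups of Timp2 and Timp3 overlap.

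Timp1 was higher in the aortas of Kl/Kl mice in all 3 settings, and it was the only TIMP gene called. Mean Timp1 was 11.7 times as high in Kl/Kl as in control Bmp2+/+ males, 17.7 times in Bmp2+/+ females and 8.28 times in ∆UCS males. All 10 Kl/Kl libraries whose sex genes match their labels stood above all 12 control libraries. The share of all genes that did the same over these pooled libraries was not computed. Within settings, that share was 5.77% in Bmp2+/+ males, 28.3% in Bmp2+/+ females and 8.2% in ∆UCS males. As labelled the libraries overlapped, since the library labelled Kl/Kl Bmp2+/+ male replicate 1 had 0.376 TPM. In bulk tissue, more cells that express a gene and more RNA per cell cannot be told apart.

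In Bmp2+/+ males, Timp1 was at 9.17, 2.63 and 8.36 TPM in Kl/Kl replicates 2 to 4, against 0.741, 0.429, 0.847 and 0.279 TPM in control replicates 1 to 4. The library labelled Kl/Kl replicate 1 had 0.376 TPM, a level within the control range. Without that library the groups did not overlap, whereas with it they did. Means were 6.72 ± 3.56 TPM (SD, n = 3) in Kl/Kl and 0.574 ± 0.265 TPM (SD, n = 4) in control males. On the log2(TPM + 1) scale, which understates the change of a gene this low, Timp1 rose by 2.17 (SE 0.32, limma adjusted p = 0.00062). Of 9861 genes tested, 1.04% were called higher in this comparison and 1.11% in either direction. Without Kl/Kl replicate 4 the change was 1.76 and was no longer called, with a limma adjusted p of 0.0756. With all 24 libraries it was 1.58 (limma adjusted p = 0.644).

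In Bmp2+/+ females, Timp1 was at 10.0, 10.2 and 5.13 TPM in Kl/Kl replicates 1, 3 and 4, against 0.625, 0.545, 0.286 and 0.454 TPM in control replicates 1 to 4. The library labelled Kl/Kl replicate 2 had 0.749 TPM, far below the other Kl/Kl libraries and just above the highest control. The groups did not overlap with or without it, as for 11.8% of genes with it. Means were 8.46 ± 2.88 TPM (SD, n = 3) in Kl/Kl and 0.478 ± 0.146 TPM (SD, n = 4) in control females. Timp1 rose by 2.63 on the log2 scale (SE 0.31, limma adjusted p = 3.06e-05), in a comparison where 2.61% of genes were called higher and 2.63% in either direction. With all 24 libraries the change was 2.04 (limma adjusted p = 0.15).

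In ∆UCS males, Timp1 was at 4.88, 7.02, 3.47 and 7.26 TPM in Kl/Kl replicates 1 to 4, against 0.542, 0.448, 0.833 and 0.911 TPM in control replicates 1 to 4. The groups did not overlap, and both hold the full 4 libraries. Means were 5.66 ± 1.81 TPM in Kl/Kl and 0.684 ± 0.223 TPM in control males (SD, n = 4 each). Timp1 rose by 1.95 on the log2 scale (SE 0.29, limma adjusted p = 0.00133), where 0.537% of genes were called higher and 0.649% in either direction. With all 24 libraries in the fit the change was again 1.95, but the shared estimate of spread was larger and the limma adjusted p was 0.151.

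Groups that do not overlap were common in these data. Kl/Kl stood wholly above control for 5.77% of tested genes in Bmp2+/+ males, 28.3% in Bmp2+/+ females and 8.2% in ∆UCS males. The median change of all genes tested was 0.09 in Bmp2+/+ males, 0.29 in Bmp2+/+ females and 0.26 in ∆UCS males, so most genes sat slightly higher in Kl/Kl libraries. Relative to these medians, Timp1 was 2.08, 2.34 and 1.69 higher. After median-of-ratios scaling, which sets the median near 0, Timp1 rose by 2.02, 2.33 and 1.75 (limma adjusted p = 0.000199, 1.62e-05 and 0.000862). That scaling also changed the balance of calls, to 152 higher and 26 lower in Bmp2+/+ males, 223 and 152 in Bmp2+/+ females and 71 and 58 in ∆UCS males. On the deposited scale the calls were 103 higher and 6 lower, 257 and 2, and 53 and 11.

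Timp1 reached 1 TPM in 10 of 10 Kl/Kl libraries and in 0 of 12 control libraries, so it passed the filter on low values only through the group in which it was high. Its reads were nevertheless enough to measure it in both. Estimated Timp1 reads ran from 485 to 2343 in Kl/Kl and from 30 to 191 in control libraries, above the minimum of 10 reads in all 22. With limma voom on the estimated reads, which needs no pseudocount of 1 TPM, Timp1 rose by 3.31 in Bmp2+/+ males, 3.56 in Bmp2+/+ females and 2.63 in ∆UCS males (limma adjusted p = 0.00019, 5.1e-05 and 0.00121). In that fit 1.37%, 2.08% and 0.718% of 22151 genes were called higher. Syn1, the gene around Timp1, had 7 to 131 estimated reads in Kl/Kl and 14 to 456 in control libraries, with medians of 50 and 97. The medians of Timp1 were 1094 reads in Kl/Kl and 103 in control libraries. Syn1 reads were thus far below those of Timp1 in Kl/Kl libraries but of similar number in control libraries. Over all 22 libraries pooled, Syn1 had 0.9% to 426.2% as many reads as Timp1, with a median of 13.8%. The part of shared reads in the Timp1 values was not tested.

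**Figure D2:**
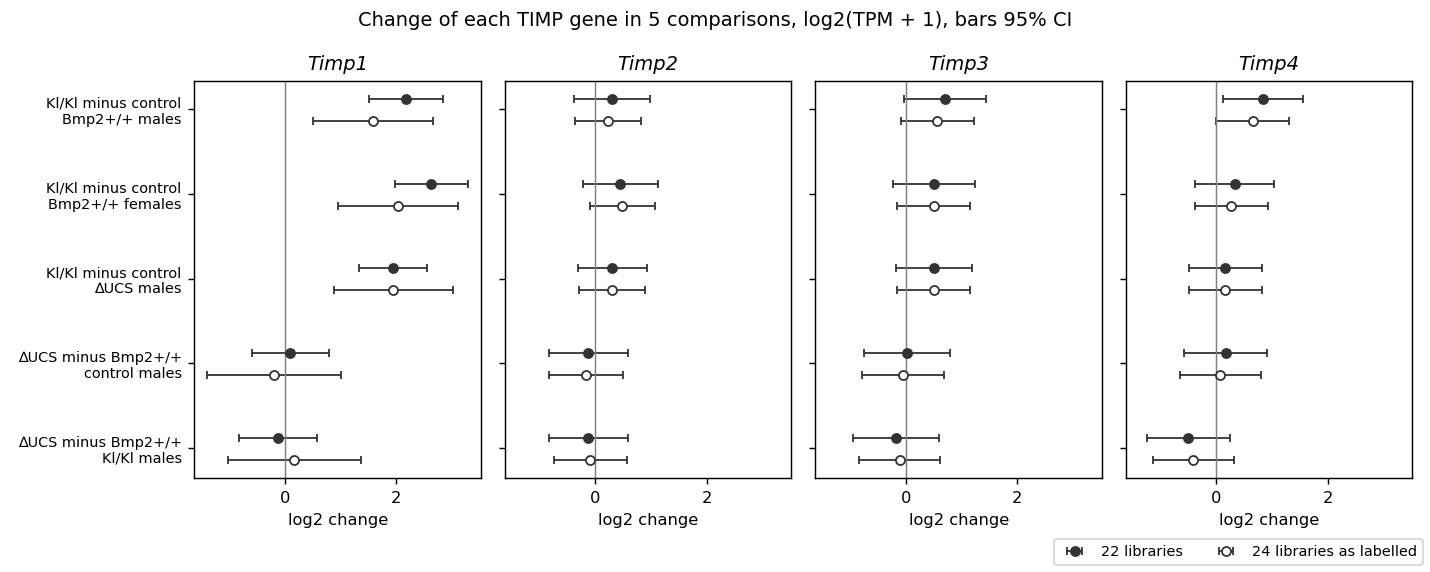
Log2 change of each TIMP gene on the log2(TPM + 1) scale, with 95% confidence intervals from limma, for 22 libraries (filled) and 24 libraries (open). Positive values are higher in Kl/Kl (upper 3 rows) or in ∆UCS (lower pair of rows). The Timp1 intervals of the upper 3 rows and the Timp4 interval in Bmp2+/+ males lie above 0 in both sets of libraries. After adjustment, Timp1 is called with 22 libraries only and Timp4 with neither set. Every interval of the lower pair of rows spans 0.

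Timp2, which takes part in activating pro-MMP2 at the cell surface as well as inhibiting MMPs, did not pass the test in any comparison. In Bmp2+/+ males it was at 8.56, 2.33 and 4.24 TPM in Kl/Kl replicates 2 to 4, against 5.07, 2.98, 3.51 and 2.00 TPM in control replicates 1 to 4. In Bmp2+/+ females it was at 6.84, 4.65 and 2.56 TPM in Kl/Kl replicates 1, 3 and 4, against 2.50, 3.52, 2.62 and 3.20 TPM in controls. In ∆UCS males it was at 3.92, 6.04, 4.52 and 3.98 TPM in Kl/Kl, against 2.69, 2.54, 4.09 and 5.13 TPM in controls. The libraries labelled Kl/Kl male replicate 1 and Kl/Kl female replicate 2 had 2.69 and 4.97 TPM. The groups overlapped each time, and 1 or 2 Kl/Kl libraries stood above the rest. Fitted changes were 0.31 (95% interval -0.37 to 0.98), 0.45 (-0.21 to 1.12) and 0.31 (-0.31 to 0.92), with limma adjusted p of 0.774, 0.363 and 0.538. They were 0.23, 0.49 and 0.31, and not called, with all 24 libraries. After median-of-ratios scaling they were 0.16, 0.06 and 0.04, near the median of all genes. The change in Bmp2+/+ males lay between -0.025 without Kl/Kl replicate 2 and 0.74 without Kl/Kl replicate 3. That in females lay between 0.19 without Kl/Kl replicate 1 and 0.76 without Kl/Kl replicate 4, and that in ∆UCS males was 0.19 without either Kl/Kl or control replicate 2.

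Timp3, the inhibitor held in the matrix, was the most abundant TIMP transcript per unit of length among Timp1, Timp2 and Timp3 on average and in each of the 22 libraries except replicate 4 of the control Bmp2+/+ males, where Timp2 stood above it. In Bmp2+/+ males it was at 14.1, 9.02 and 12.1 TPM in Kl/Kl replicates 2 to 4, against 8.80, 9.35, 7.58 and 2.44 TPM in control replicates 1 to 4. In Bmp2+/+ females it was at 15.7, 14.8 and 9.67 TPM in Kl/Kl replicates 1, 3 and 4, against 8.35, 9.27, 8.04 and 10.3 TPM in controls. In ∆UCS males it was at 7.81, 20.0, 12.8 and 7.12 TPM in Kl/Kl, against 7.19, 5.98, 7.52 and 9.47 TPM in controls. The libraries labelled Kl/Kl male replicate 1 and Kl/Kl female replicate 2 had 6.39 and 13.2 TPM. In each setting 1 or 2 Kl/Kl libraries lay within the range of the controls and the others stood above it. Fitted changes were 0.71 (95% interval -0.04 to 1.45), 0.50 (-0.23 to 1.24) and 0.51 (-0.17 to 1.18), with limma adjusted p of 0.481, 0.358 and 0.402. All 24 libraries gave 0.57, 0.51 and 0.51, not called. After median-of-ratios scaling they were 0.56, 0.05 and 0.19. Without control replicate 4 the change in Bmp2+/+ males was 0.39, without Kl/Kl replicate 4 it was 0.42, and without Kl/Kl replicate 2 that in ∆UCS males was 0.24.

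Timp4, whose expression is known to be more restricted, with heart, fat and vessels among its sites, did not pass the test either. In Bmp2+/+ males it was at 9.24, 11.1 and 13.5 TPM in Kl/Kl replicates 2 to 4, against 6.53, 8.94, 7.89 and 1.91 TPM in control replicates 1 to 4. These groups did not overlap, as for 5.77% of genes in that comparison, and the library labelled Kl/Kl replicate 1, at 5.61 TPM, lay among the controls. In Bmp2+/+ females it was at 7.61, 13.6 and 7.11 TPM in Kl/Kl replicates 1, 3 and 4, against 7.07, 6.73, 5.79 and 8.61 TPM in controls. In ∆UCS males it was at 5.34, 11.2, 9.13 and 7.45 TPM in Kl/Kl, against 6.64, 7.004, 7.54 and 7.005 TPM in controls. The library labelled Kl/Kl female replicate 2 had 7.55 TPM. In females and in ∆UCS males the groups overlapped, and the ∆UCS controls spanned the narrowest range of the 6 groups. Fitted changes were 0.84 (95% interval 0.12 to 1.55), 0.34 (-0.37 to 1.04) and 0.17 (-0.48 to 0.82), with limma adjusted p of 0.352, 0.528 and 0.748. All 24 libraries gave 0.65, 0.28 and 0.17, not called. After median-of-ratios scaling the values were 0.70 in Bmp2+/+ males but -0.10 in Bmp2+/+ females and -0.14 in ∆UCS males. Without Kl/Kl replicate 4 the change in Bmp2+/+ males was 0.44, and without control replicate 4 it was 0.48. Without Kl/Kl replicate 3 that in females was 0.07, and in ∆UCS males it lay between 0.02 without Kl/Kl replicate 2 and 0.34 without Kl/Kl replicate 1.

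Replicate 4 of the control Bmp2+/+ males was the lowest of the 22 libraries for all 4 genes, at 0.279 TPM of Timp1, 2.00 TPM of Timp2, 2.44 TPM of Timp3 and 1.91 TPM of Timp4. Its mitochondrial share was 55.5%, and 8 of the 22 libraries had a higher one. Syn3 had 0.1% to 0.9% as many estimated reads as Timp3, and Cep295nl 0% to 0.2% as many as Timp2. Syn2 had 6.9% to 112.4% as many as Timp4, with medians of 661 reads in Kl/Kl and 620 in control libraries.

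No TIMP gene was called between ∆UCS and Bmp2+/+ males, with or without the Klotho mutation. In control males, ∆UCS minus Bmp2+/+ was 0.11 for Timp1 (95% interval -0.59 to 0.80), -0.12 for Timp2 (-0.82 to 0.58), 0.02 for Timp3 (-0.75 to 0.80) and 0.17 for Timp4 (-0.57 to 0.91). In Kl/Kl males it was -0.12 for Timp1 (-0.81 to 0.58), -0.12 for Timp2 (-0.82 to 0.58), -0.18 for Timp3 (-0.95 to 0.60) and -0.50 for Timp4 (-1.24 to 0.24). The limma adjusted p was 0.958 or above for all of these. These intervals leave room for changes of more than 0.5 in either direction for Timp1, Timp2 and Timp3, so a moderate effect of ∆UCS was not detectable with these numbers of mice. In either comparison 0% of 9861 genes were called, although 180 genes in Kl/Kl males and 216 in control males had an unadjusted p below 0.05. Limma voom on estimated reads also called 0. With all 24 libraries the Timp1 values were -0.19 in control and 0.18 in Kl/Kl males, and Timp4 in Kl/Kl males was -0.41, none of them called. All ∆UCS libraries belong to 1 of the 2 library-name sets, while the Bmp2+/+ males are in both. The set was a term in the fit.

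The Klotho effect was not shown to differ between settings. For Timp1, the effect in ∆UCS males minus that in Bmp2+/+ males was -0.22 (95% interval -1.12 to 0.68, limma adjusted p = 0.963), and that in females minus that in males was 0.46 (-0.48 to 1.39, limma adjusted p = 0.988). For Timp4 these differences were -0.67 (-1.64 to 0.30) and -0.50 (-1.51 to 0.50), with limma adjusted p of 0.954 and 0.988. Timp2 and Timp3 differences lay between -0.20 and 0.15. Both differences use the Bmp2+/+ male libraries, so they are not independent. Limma called 0% of genes in either difference, with 204 and 141 genes at an unadjusted p below 0.05, and limma voom called 0.

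**Figure D3:**
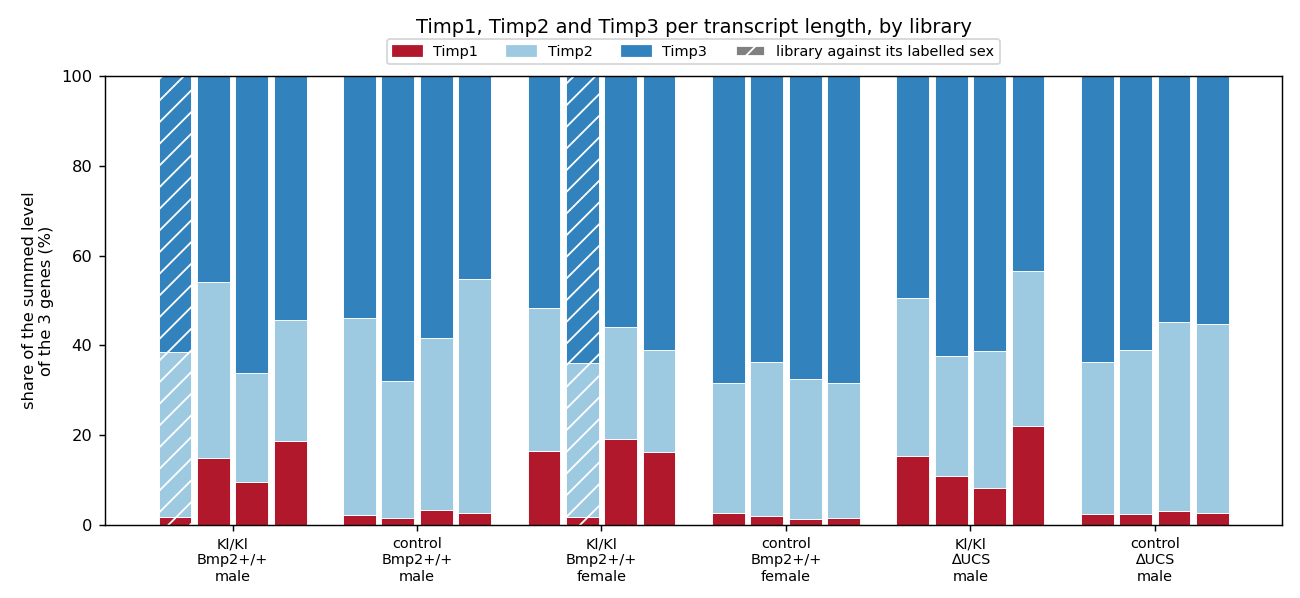
Shares of Timp1, Timp2 and Timp3 in their summed level, in estimated reads per kilobase of transcript, in each library (replicates 1 to 4 from left to right in each group). Hatched bars are the 2 libraries whose sex genes go against their labels. Timp1 takes 8.25% to 22.1% in the other Kl/Kl libraries and 1.20% to 3.25% in control libraries.

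To compare the genes with each other, estimated reads were divided by transcript length and by depth. The lengths were 883 bases for Timp1, 3709 for Timp2 and 4722 for Timp3, from the longest basic coding transcript of GENCODE M21. Over the 10 Kl/Kl libraries, the level per kilobase, scaled to a common depth, averaged 118 ± 27.2 for Timp3, 64.2 ± 18.7 for Timp2 and 32.8 ± 12.02 for Timp1 (SD). Over the 12 control libraries it averaged 84.4 ± 20.3 for Timp3, 50.0 ± 9.75 for Timp2 and 3.06 ± 0.955 for Timp1 (SD). Timp3 and then Timp2 thus stood above Timp1 in both. Timp4 has transcripts of 5496 and 945 bases, and its place depends on which is used. With the long one it averaged 17.1 ± 5.36 in Kl/Kl and 13.2 ± 3.41 in control libraries (SD), below Timp1 in Kl/Kl but above it in control libraries. With the short one it averaged 99.3 ± 31.2 in Kl/Kl and 77.0 ± 19.8 in control libraries (SD), between Timp3 and Timp2 in both.

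The share of each gene in the sum of Timp1, Timp2 and Timp3, without Timp4, was set out by library, as a description with no test. Timp1 took a median of 15.7% of the summed level of Timp1, Timp2 and Timp3 in Kl/Kl libraries (8.25% to 22.1%), against 2.33% in control libraries (1.20% to 3.25%). Timp2 took 28.8% in Kl/Kl (22.9% to 39.4%) and 35.5% in control libraries (29.1% to 52.3%). Timp3 took 55.1% in Kl/Kl (43.5% to 66.2%) and 62.4% in control libraries (45.1% to 68.4%). Pooled over the settings, the Timp1 shares of Kl/Kl and control libraries did not overlap, whereas those of Timp2 and Timp3 did. In Bmp2+/+ females alone, Timp3 took 51.7% to 61.0% in Kl/Kl and 63.8% to 68.4% in control libraries. The shares are tied to each other, so a higher share of Timp1 lowers the rest. In the 2 libraries labelled Kl/Kl that go against their sex labels Timp1 took 1.80% and 1.81%, within the control range, so with all 24 as labelled its shares overlapped too. A share within a library does not depend on how libraries are scaled.

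The proteinases that TIMPs block were taken from a list of 23 MMP genes, of which 20 were in the table and 8 passed the filter on low values. Of these 8, limma called 2 higher in Kl/Kl in Bmp2+/+ males, 3 in Bmp2+/+ females and 1 in ∆UCS males, and 0 lower. Mmp12, which passed the filter only through Kl/Kl libraries, is in each of these counts and was the single call in ∆UCS males. Over all genes tested, 1.04%, 2.61% and 0.537% were called higher. The list's median change was 0.59, 1.09 and 0.54, against 0.09, 0.29 and 0.26 over all genes tested. With all 24 libraries 0 were called.

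Mmp12, the macrophage elastase, was called higher in all 3 settings. It was at 21.4, 13.95 and 11.2 TPM in Kl/Kl Bmp2+/+ males of replicates 2 to 4, against 0.0313 TPM on average in their controls. It averaged 29.2 TPM in Kl/Kl and 0.187 TPM in control females, and 7.97 TPM in Kl/Kl and 0.0384 TPM in control ∆UCS males. The changes on the log2(TPM + 1) scale were 3.91 (SE 0.28), 4.67 (SE 0.28) and 3.02 (SE 0.26), with limma adjusted p of 1.62e-07, 1.16e-08 and 2.52e-06. Control libraries carried at most 0.641 TPM of Mmp12, so it passed the filter on low values only through Kl/Kl libraries, as Timp1 did, and its values are a description. In the libraries labelled Kl/Kl that go against their sex labels, Mmp12 was also low, at 0.0439 TPM in the male and 0.00965 TPM in the female.

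Mmp3, or stromelysin-1, rose by 1.20 in Bmp2+/+ males and by 1.31 in Bmp2+/+ females (limma adjusted p = 0.0142 and 0.00314), and its change in ∆UCS males was 0.46 (limma adjusted p = 0.297). It was named after its values were seen, since it lay below the level set for naming. Mmp19, a proteinase of basement membranes, rose by 2.12 in Bmp2+/+ females (limma adjusted p = 0.00192), with 1.53 and 0.90 in Bmp2+/+ and ∆UCS males (limma adjusted p = 0.0553 and 0.197). Mmp2, the gelatinase whose proform Timp2 helps to activate, averaged 5.21, 5.89 and 5.06 TPM in the 3 Kl/Kl groups, against 2.95, 2.28 and 2.99 TPM in their controls. Its changes of 0.57, 1.00 and 0.61 did not pass the test (limma adjusted p = 0.562, 0.104 and 0.323), nor did those of Mmp23, at 0.32, 0.49 and 0.05. Limma voom on estimated reads could test 17 of the 20, in a fit where 1.37%, 2.08% and 0.718% of all genes were called higher. It called 5, 5 and 1 of the 17 higher in Kl/Kl and 0 lower. Those called in Bmp2+/+ males and females were Mmp3, Mmp8, Mmp12, Mmp13 and Mmp19, and the one called in ∆UCS males was Mmp12.

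**Figure D4:**
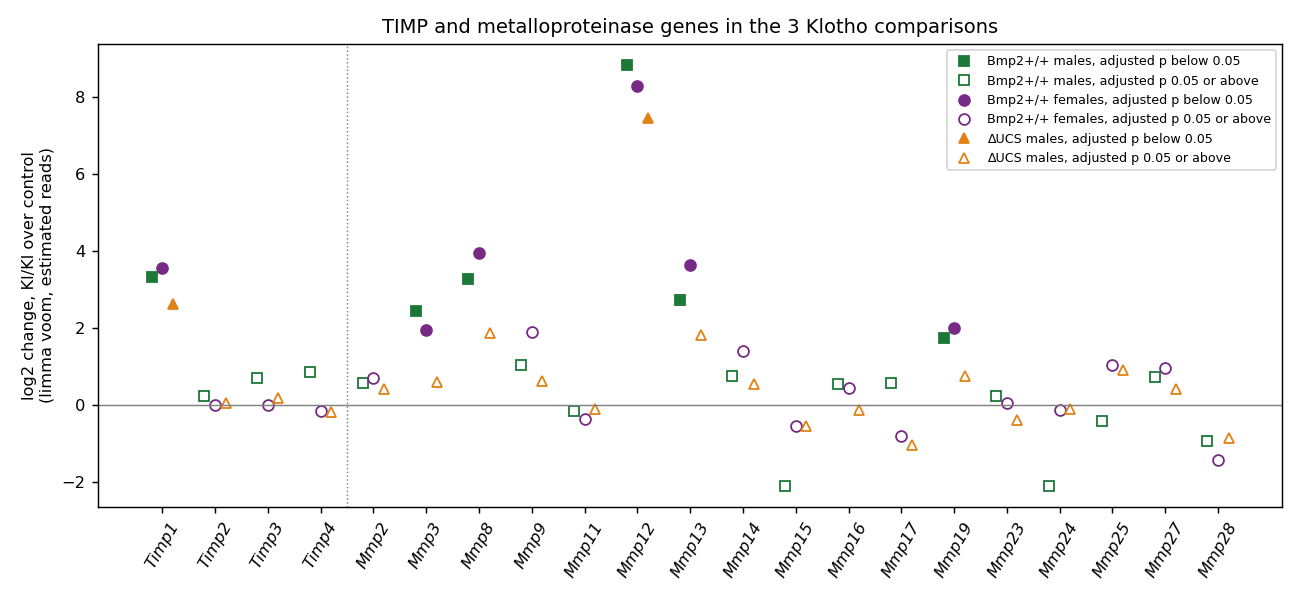
Log2 change of Kl/Kl over control from limma voom on estimated reads (22 libraries) for the 4 TIMP genes, left of the dotted line, and the 17 MMP genes tested. Filled symbols have an adjusted p below 0.05. Timp1 and Mmp12 are filled in all 3 settings, and Timp2, Timp3 and Timp4 lie within 1 of 0.

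Of 28 ADAM and ADAMTS genes, the proteinases that Timp3 can also block, 8 passed the filter and limma called 0 in each of the 3 settings, where 1.11%, 2.63% and 0.649% of all genes were called. At that background 0 of 8 says nothing particular to these genes. Their median changes were 0.22, 0.44 and 0.18. Adamts1, which cuts proteoglycans, had changes of 1.13, 0.77 and 0.52, not called. After median-of-ratios scaling Adam8, named after its values were seen, was called higher in Bmp2+/+ females (1.42, limma adjusted p = 0.0315). Of 17 other secreted protease inhibitors, 13 passed the filter, and Serpina3n, an acute-phase serine protease inhibitor, was the single one called on the log2(TPM + 1) scale as deposited. It averaged 46.2 TPM in Kl/Kl and 6.82 TPM in control Bmp2+/+ males, and 67.2 TPM in Kl/Kl and 6.58 TPM in control females. It rose by 2.50 and 2.78 (limma adjusted p = 0.0425 and 0.00922), and its change in ∆UCS males was 1.66 (limma adjusted p = 0.119). The changes of Slpi, a serine protease inhibitor of secretions, were 0.90, -1.32 and 2.48, and those of Wfdc2 were -1.03, 1.31 and 1.28, none of them called.

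Of 10 genes for proteins that bind TIMPs at the cell surface or carry them, 6 passed the filter. The share of all genes tested that was called higher was 1.04%, 2.61% and 0.537% in the 3 settings. Cd63, a tetraspanin that binds Timp1 on the cell surface and is also abundant in lysosomal membranes, rose in all 3 settings. It was at 15.1, 8.30 and 19.2 TPM in Kl/Kl Bmp2+/+ male replicates 2 to 4, against 5.41, 3.24, 6.25 and 2.74 TPM in controls. It averaged 14.6 TPM in Kl/Kl and 3.54 TPM in control females, and 9.83 TPM in Kl/Kl and 4.03 TPM in control ∆UCS males. The changes were 1.44, 1.81 and 1.13 (limma adjusted p = 0.0101, 0.000452 and 0.0476). The call in ∆UCS males was lost after median-of-ratios scaling (0.84, limma adjusted p = 0.0942) and with limma voom (0.97, limma adjusted p = 0.124). Cd44, the hyaluronan receptor, rose by 1.07 in Bmp2+/+ females (limma adjusted p = 0.00468), with 0.58 in each of the male settings, not called. It was named after its values were seen. Itgb1, an integrin subunit, had changes of 0.91, 0.70 and -0.02, and Cd74, the invariant chain, -0.01, 1.38 and 1.09, none of them called.

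Of 17 genes listed as AP-1 factors, cytokines and receptors with a known part in inducing Timp1, 11 passed the filter. Osmr, the receptor for oncostatin M, rose by 0.77 in Bmp2+/+ females (limma adjusted p = 0.0409) and was the single one called, with 0 in the other settings. It was named after its values were seen, as were the cytokines below. The share of all genes tested that was called higher was 1.04%, 2.61% and 0.537% in the 3 settings. Fos, Junb and Jund, subunits of AP-1, and Il6st, a receptor subunit shared by the interleukin-6 family, were not called. Their changes were 1.55, 0.96 and 0.73 for Fos, 0.54, 0.58 and 1.06 for Junb, -0.68, 0.01 and 0.33 for Jund, and 0.49, 0.71 and 0.21 for Il6st. With limma voom on estimated reads, which could test 16, Il1b and Osmr rose in Bmp2+/+ males and Il6, Il1b, Tnf and Osmr in Bmp2+/+ females, and 0 were called in ∆UCS males. Of all genes in that fit, 1.37%, 2.08% and 0.718% were called higher. None of the genes of these 5 lists was called with all 24 libraries.

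The genes whose pattern over the 22 libraries was most like that of Timp1 were Gpnmb, Cd68, Spp1, Mmp12 and Ctsk. Likeness was the mean absolute difference between profiles set to mean 0 and SD 1, and it was 0.214 SD for Gpnmb, 0.238 SD for Cd68, 0.247 SD for Spp1, 0.257 SD for Mmp12 and 0.258 SD for Ctsk. The median of the 1845 genes ranked, those with a mean of at least 5 TPM over the 22 libraries, was 1.20 SD. At least Mmp12 and Cd68 reached that mean only through Kl/Kl libraries. Cd68 and Gpnmb are membrane glycoproteins abundant in macrophages, Spp1 is the secreted phosphoprotein osteopontin, and Ctsk is the collagen-cutting cathepsin of osteoclasts. Timp2, Timp3 and Timp4 were at 0.880, 0.901 and 1.05 SD from Timp1. These points share libraries, depth and the groups themselves, and the measure is a description.

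The other members had different nearest genes. For Timp2 they were Aebp1 at 0.468 SD, Igfbp4, Igfbp7, Zyx and Mxra8 at 0.519 SD. For Timp3 they were Arxes2 at 0.486 SD, Timp4 at 0.525 SD, Adamts1, Lpl and Dnajb9 at 0.558 SD. For Timp4 they were Gpihbp1 at 0.392 SD, Arl4a, Tmed4, Tmed2 and Timp3 at 0.525 SD. Timp3 and Timp4 were thus among the 5 nearest genes of each other. Only genes with a mean of at least 5 TPM over the 22 libraries were ranked. Timp1 and Timp2, at means of 3.41 and 3.98 TPM, could therefore not enter the list of another member. Lpl is lipoprotein lipase and Gpihbp1 its anchor on capillary endothelium. The adipocyte markers, of which 9 of 9 were tested and 0 called, summed to 972 to 2172 TPM in Kl/Kl and 1503 to 2059 TPM in control libraries.

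**Figure D5:**
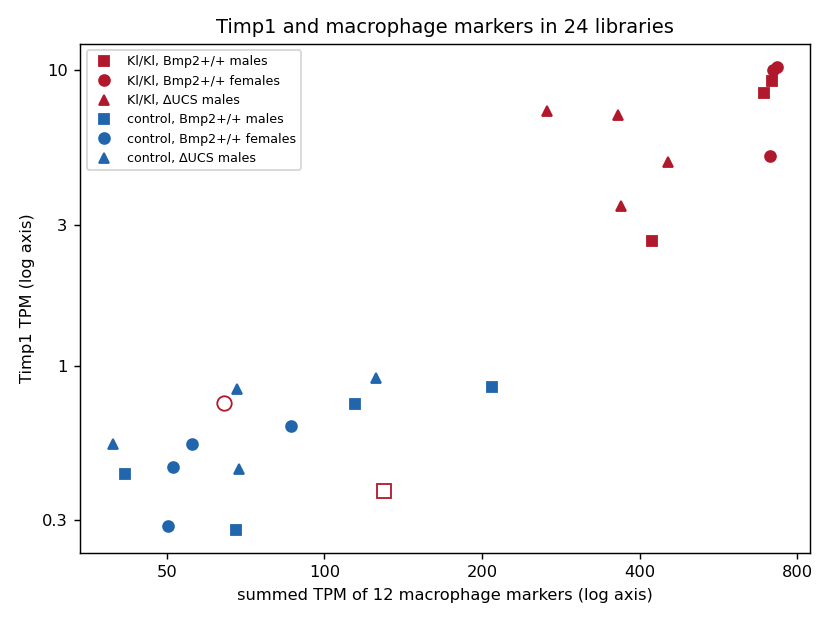
Timp1 TPM against the summed TPM of 12 macrophage markers in each of the 24 libraries (both axes log). Open symbols are the 2 libraries whose sex genes go against their labels. Kl/Kl libraries with matching sex genes lie at the upper right, from 266 TPM of the markers and 2.63 TPM of Timp1, and both open symbols lie among the control libraries.

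Macrophage markers, like Timp1, were higher in Kl/Kl than in control libraries. Of the 12 markers, 8 passed the filter, and limma called 5 of them higher in Bmp2+/+ males, 7 in Bmp2+/+ females and 5 in ∆UCS males, with none at 0 reads in any library. Over all genes tested, 1.04%, 2.61% and 0.537% were called higher. Cd68 averaged 49.8, 48.7 and 29.4 TPM in Kl/Kl, against 3.72, 2.16 and 3.01 TPM in controls. The median changes of the 8 markers were 2.30, 2.67 and 1.79. The 12 markers do not weigh equally in their sum, since Lyz2 reached 516 TPM, whereas Adgre1, Fcgr1, Ms4a7 and Itgam stayed at 1.59 TPM or below. The sum of the 12 was 421 to 714 TPM in Kl/Kl and 41.6 to 209 TPM in control Bmp2+/+ males. It was 708 to 731 TPM in Kl/Kl and 50.2 to 86.4 TPM in control females, and 266 to 453 TPM in Kl/Kl and 39.5 to 125 TPM in control ∆UCS males. The library labelled Kl/Kl male replicate 1 had 130 TPM and that labelled Kl/Kl female replicate 2 had 64.2 TPM, both low for Timp1 also. Among the other Kl/Kl libraries, the marker sum and Timp1 ranked alike in Bmp2+/+ males and in females, but not in ∆UCS males. There, Kl/Kl replicate 4 had the lowest marker sum, 266 TPM, and the highest Timp1, 7.26 TPM. Timp1 TPM amounted to 0.625% to 2.73% of the marker sum in Kl/Kl libraries and to 0.406% to 1.37% in control libraries, ranges that overlap. Because the deposited TPM were scaled by genomic span, this percentage can be compared between libraries, but its size has no meaning by itself. The part of these cells in the Timp1 result was not tested.

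Among markers of other cell types, where the share of all genes called was 1.11%, 2.63% and 0.649%, limma called 0 of 10 fibroblast, 0 of 8 smooth muscle, 0 of 5 endothelial, 0 of 9 adipocyte and 0 of 3 neutrophil markers tested in any of the 3 settings. The same held for 7 cardiomyocyte, 3 chondrocyte, 8 T and NK cell and 5 B cell markers. Of 8 airway markers, Scgb3a1 and Reg3g were called higher in Bmp2+/+ females and in ∆UCS males, and of 3 Schwann cell markers S100b was called lower in ∆UCS males. These lists hold few genes, and at that background 0 called says nothing particular to them.

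The summed levels of several of these lists also separated, as a description with no test. In Bmp2+/+ females, where 28.3% of genes stood wholly higher in Kl/Kl, the fibroblast sum was 148 to 238 TPM in Kl/Kl and 85.2 to 117 TPM in control libraries. The airway sum there was 2574 to 3604 TPM in Kl/Kl and 275 to 1359 TPM in control libraries. The cardiomyocyte sum was 397 to 4103 TPM in Kl/Kl and 206 to 386 TPM in control females, and the chondrocyte sum 4.12 to 27.5 TPM in Kl/Kl and 2.81 to 3.76 TPM in control females. The Schwann cell sum was lower, at 6.35 to 9.32 TPM in Kl/Kl and 9.34 to 11.1 TPM in control females, where 1.63% of genes stood wholly lower. In ∆UCS males, where 8.2% of genes stood wholly higher, the airway sum was 1040 to 2641 TPM in Kl/Kl and 6.79 to 929 TPM in control libraries, and the neutrophil sum 5.04 to 30.7 TPM in Kl/Kl and 0.449 to 4.15 TPM in control libraries. The library labelled Kl/Kl female replicate 2 had an airway sum of 268 TPM, below all control females. In Bmp2+/+ males all of these sums overlapped. The part of these cell types in the Timp1 result was not tested.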

How the data were processed

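RNA was measured in 24 mouse aortas. Aortas were flash frozen and RNA was isolated with a miRNeasy kit, followed by a directional kit for polyA RNA, per the labels' protocols. Expression is deposited as TPM. These were computed by the authors with Partek and the mm39 genome, according to the submitters' processing notes. Aligner, annotation release, treatment of reads with several matches and use of strand: not given in the sources used here. Each column totals 482073 TPM, and 0 sample columns were left unused.

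Genes with at least 1 TPM in at least 4 libraries were tested on log2(TPM + 1) with limma 3.58.1 under R 4.3.3, using eBayes with its trend option. Terms were the 6 groups and the library-name set, without 2 libraries whose sex genes go against their labels. Tests were two-sided, with Benjamini-Hochberg adjustment over all genes tested and a threshold of 0.05. The pseudocount of 1 understates the change of low genes. The scripts were tested on simulated data.

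Reads were estimated from the lowest values, taken as 0.0001 read. Of 255937 values between 0.5 and 20 reads, 73.2% came within 0.05 of a whole number. Estimated reads were tested with limma voom (at least 10 reads in at least 4 libraries, mitochondrial genes left out, median-of-ratios scaling). Estimated depth was 20594000 to 61110000 reads per library, which limits the precision of low genes.

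The library set is the spelling of the library name, which the labels do not explain. Other settings were all 24 libraries, scaling, pseudocount, filter, set, age, replicate block and leaving out each library. No pair of libraries held identical values. Same-numbered libraries of compared groups correlated at -0.48 to 0.32 in their deviations from group means, so the numbers were not taken to pair them. The members and gene lists were chosen with earlier results of these data known. Of each list, up to 4 genes were to be named, those called in most Klotho comparisons and then by size of change, with at least 5 TPM in 1 group, and for each TIMP gene the 5 genes most like it. Only some of the marker genes so chosen are named, and a gene chosen in another list is not reported here.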

Additional observations from a re-analysis of the deposited data

Results flagged for a closer look

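Timp4 in Kl/Kl Bmp2+/+ females was marked because 1 of the 4 libraries stood far from the other 3. Replicate 3 had 13.64 TPM of Timp4, while replicates 1, 2 and 4 had 7.61, 7.55 and 7.11 TPM. Replicate 2 is the library whose sex genes go against its label, and it was counted here. The mark was 1 of 24 combinations of gene and group examined, and chance marks about 1 in 20. In replicate 3 Timp1 was at 10.2 TPM, Timp2 at 4.65 TPM and Timp3 at 14.8 TPM, none of them marked. In fits that already left out replicate 2, the change of Timp4 in females was 0.07 on the log2 scale without replicate 3, against 0.34 with it.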

How the results depend on the processing

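Timp1 was called in all 3 Klotho comparisons with 22 libraries, and Timp2, Timp3 and Timp4 in none under any setting run. The change of Timp1 in Bmp2+/+ males, Bmp2+/+ females and ∆UCS males fell below the threshold whenever all 24 libraries entered: 1.58, 2.04 and 1.95 on the log2(TPM + 1) scale, 1.47, 1.79 and 1.75 after median-of-ratios scaling, and 2.46, 2.83 and 2.63 with limma voom. Its limma adjusted p ran from 6.14e-06 to 0.644, from 1.45e-05 to 0.272 and from 0.000593 to 0.183 over all settings. In library set 1 alone it was 1.76 in Bmp2+/+ males (limma adjusted p = 0.569, 2 libraries a group) and not called. In a fit of only the groups compared, Timp1 did not pass the filter in Bmp2+/+ males and females, so no value could be had there, while the call in ∆UCS males held.

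Leaving out each library in turn gave Timp1 changes of 1.76 to 2.65 in Bmp2+/+ males, 2.48 to 2.92 in Bmp2+/+ females and 1.83 to 2.13 in ∆UCS males, and the call was lost only without Kl/Kl Bmp2+/+ male replicate 4. The number of genes called ran from 36 to 410, 126 to 536 and 38 to 162, and from 0 to 1 for the Klotho by sex difference. Timp2 in Bmp2+/+ males ran from -0.025 to 0.74. ∆UCS minus Bmp2+/+ in Kl/Kl males ran from -0.75 to 0.24 for Timp1, -0.69 to 0.32 for Timp2 and -0.47 to 0.011 for Timp3. In control males it ran from -0.27 to 0.088 for Timp2, -0.13 to 0.18 for Timp3 and -0.0088 to 0.38 for Timp4. The Klotho by Bmp2 difference ran from -0.70 to 0.19 for Timp1, -0.43 to 0.33 for Timp2 and -0.47 to 0.11 for Timp3. The Klotho by sex difference ran from -0.017 to 0.87 for Timp1, -0.28 to 0.48 for Timp2 and -0.42 to 0.11 for Timp3.

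Genes called in Bmp2+/+ males, Bmp2+/+ females and ∆UCS males, 109, 259 and 64 as reported, were 0, 0 and 0 with all 24 libraries, 0, 0 and 1 with all 24 after median-of-ratios scaling, and 0, 0 and 0 with all 24 in limma voom. With 22 libraries they were 334, 727 and 269 in limma voom. Median-of-ratios scaling gave 178 in Bmp2+/+ males and 129 in ∆UCS males. A filter of 5 TPM gave 48, 130 and 324, no filter gave 988 in females, no library set gave 101 in ∆UCS males, set 1 alone gave 12 in Bmp2+/+ males and 155 in ∆UCS males, and only the groups compared gave 0 in Bmp2+/+ males. The cause was not tested.

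All sign changes concerned values not called. Median-of-ratios scaling turned Timp4 to -0.10 in females and -0.14 in ∆UCS males, and limma voom to -0.16 and -0.18. With all 24 libraries these were -0.11 and -0.13 after scaling and -0.15 and -0.18 in limma voom. Timp2 in females was -0.0064 in limma voom. For ∆UCS minus Bmp2+/+ in control males, Timp2 was 0.074 after scaling, 0.11 in limma voom, 0.080 without the library set, and 0.040 and 0.064 with all 24 libraries after scaling and in limma voom. Timp1 there was -0.19 with all 24 libraries, -0.092 and -0.086 with all 24 after scaling and in limma voom, and -0.10 in set 1 alone. Timp3 was -0.044 with all 24 libraries, -0.12 in set 1 alone, -0.12 in only the groups compared and -0.019 with age as a covariate, and Timp4 was -0.026 in set 1 alone and -0.026 in only the groups compared. For ∆UCS minus Bmp2+/+ in Kl/Kl males, Timp1 was 0.18 with all 24 libraries, 0.19 and 0.085 with all 24 after scaling and in limma voom, 0.088 in set 1 alone and 0.088 in only the groups compared, and Timp2 was 0.013 without the library set. For the Klotho by Bmp2 difference, Timp1 was 0.37 with all 24 libraries, 0.29 and 0.17 with all 24 after scaling and in limma voom, and 0.19 in set 1 alone. Timp2 there was 0.077 with all 24 libraries, 0.20 in set 1 alone and 0.021 with a pseudocount of 0.1, and Timp3 was 0.084 in set 1 alone. For the Klotho by sex difference, Timp2 was -0.10 after scaling and -0.22 in limma voom.

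With the replicate number as a block, Timp1 changed by 2.17, 2.67 and 1.95, with 97, 184 and 50 genes called in the 3 Klotho comparisons, and no call on a TIMP gene changed. Low reads limit Timp1 in control libraries, where 30 to 191 estimated reads were seen.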
